A study of Mus musculus with 2 samples.

Results

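The regions described are ATAC-seq peaks in the introns of very long genes. They were chosen by position alone, as peaks on chromosomes 1 to 19 whose centre lay in no exon, inside a protein-coding gene longer than 300 kb in GENCODE vM21 (GRCm38), and more than 3 kb from the transcription start site (TSS) of any transcript. The list labelled WT held 5992 such peaks among 77826 deposited, and the list labelled *Bmi1* KO held 7945 among 100668. They fell in 541 genes of 300.3 to 4434.9 kb, with a median of 450.5 kb.

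The organ of Corti (OC) was taken from WT and *Bmi1*-/- littermates at P2, with the allele *Bmi1* tm1Brn backcrossed onto C57BL/6J. *Bmi1* encodes a subunit of Polycomb repressive complex 1. The OCs of 10 mice were pooled into 1 library for each genotype, so there was no replicate and no difference was tested. All 95% intervals below are exact and cover counting error only.

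The names of the peaks contradicted the labels. All 77826 names in the list labelled WT carried the prefix bko, and all 100668 names in the list labelled *Bmi1* KO carried the prefix bwt. The deposited files themselves were named as the labels are. The lists alone do not settle which is right, so they are called here the list labelled WT and the list labelled *Bmi1* KO, and every direction between them follows the labels. Within 3 kb of *Bmi1* itself (chr2:18677018-18686629, plus strand, GRCm38), 2 peaks were labelled WT and 4 labelled *Bmi1* KO. The peak at its 5′ end had a fold enrichment of 2.46 in the list labelled WT and 2.84 in that labelled *Bmi1* KO. The part of the gene that the allele removes is not given in the sources used here, so these peaks check no label.

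ATAC-seq reads come from DNA that the Tn5 transposase can reach, and a peak marks a place where reads pile up over their surroundings. Introns can hold enhancers, and genes with very long introns are known for roles in neurons, where they encode adhesion molecules, synaptic scaffolds, receptors and ion channels, and for roles in development. Several are also known in the cochlea, where hair cells turn sound into a receptor current through their stereocilia and supporting cells surround them.

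Peaks near the TSS of some marker genes were found for every cell type examined. The list labelled WT had a peak within 3 kb of a TSS for 7 of 8 hair cell markers, all but *Otof*, and the list labelled *Bmi1* KO for 7 of 8, all but *Calb2*. Among supporting cell markers the counts were 7 of 8, all but *Lfng*, and 6 of 8, all but *Lfng* and *Gjb6*. Of all 21728 protein-coding genes, 59.6% had such a peak in the list labelled WT and 68.8% in that labelled *Bmi1* KO. The share of hair cell markers was 87.5% (47.3 to 99.7%) in both lists, and that of supporting cell markers 87.5% (47.3 to 99.7%) and 75% (34.9 to 96.8%). Each thus lay above the share of all genes, which its interval included. For other cell types the counts were 4 and 5 of 8 neuronal, 3 and 4 of 6 glial, 4 and 4 of 6 mesenchymal, 4 and 5 of 6 epithelial, 5 and 4 of 6 endothelial, and 3 and 2 of 6 blood and macrophage markers in the lists labelled WT and *Bmi1* KO. The neuronal, glial and blood shares lay under that of all genes in both lists, and the intervals of all these types included it, so these counts show nothing beyond the background. In a bulk library, more cells of a type and more open chromatin per cell cannot be told apart.

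Introns of very long genes held fewer peaks per length than introns of shorter genes. Exons and windows around TSSs left 278.2 Mb of intron in long genes, which is 11.6% of the sequenced bases of chromosomes 1 to 19. In the list labelled WT these introns held 7.77% of the 77092 autosomal peaks (7.58 to 7.96%), and in the list labelled *Bmi1* KO 7.97% of 99683 (7.8 to 8.14%). The density was 2.15 peaks per 100 kb (2.1 to 2.21) in the list labelled WT and 2.86 (2.79 to 2.92) in that labelled *Bmi1* KO. Introns of protein-coding genes of 300 kb or less held 3.8 and 4.74 peaks per 100 kb, so that the density in long genes was 0.567 times (0.551 to 0.584) and 0.602 times (0.587 to 0.618) theirs. Intergenic DNA, at 2.03 and 2.76 peaks per 100 kb, was close to the long introns, with ratios of 1.06 (1.03 to 1.09) and 1.04 (1.01 to 1.06).

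Base composition moved with this difference. The eligible introns of long genes had a GC content of 40.7% and those of shorter genes 43.1%. Of the long introns, 8.36% lay in bins of 10 kb with a GC content under 36% and 16.4% in bins of 36 to 38%, against 2.44% and 6.91% of the shorter introns. At the other end, bins of at least 48% GC made up 4.31% of the long introns and 15.5% of the shorter ones. Density rose with GC in every step for long introns. It was 0.168 per 100 kb (0.119 to 0.229) in the list labelled WT and 0.344 (0.273 to 0.428) in that labelled *Bmi1* KO in the bins under 36%. It was 1.49 (1.39 to 1.6) and 2.23 (2.1 to 2.36) at 40 to 42%. It was 7.73 (7.24 to 8.24) and 8.71 (8.18 to 9.25) at 48% and above. Within a bin class the gap between long and shorter introns was small. In the list labelled WT the ratio of long to shorter introns was 0.842 (0.77 to 0.92) at 40 to 42% and 1.02 (0.951 to 1.1) at 48% and above, and in the list labelled *Bmi1* KO it was 0.91 (0.846 to 0.98) and 1.02 (0.953 to 1.09). When the shorter introns were weighted to the GC classes of the long ones, a calculation chosen after the data had been seen, their densities were 2.31 and 3.03 per 100 kb. The ratio of long to shorter introns was then 0.934 in the list labelled WT and 0.944 in that labelled *Bmi1* KO, in place of 0.567 and 0.602.

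The peaks themselves lay on bases richer in GC than the introns around them. The median GC content of the 201 bp around a summit was 50.2% for the intronic peaks of long genes in the list labelled WT and 50.7% in that labelled *Bmi1* KO, against 40.7% for the eligible introns. Introns of shorter genes had a summit GC of 51.7% in both lists. Repeat-masked bases made up most of the 201 bp for 12.3% and 14.4% of the peaks in long genes and for 11.2% and 11.6% of those in shorter genes.

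Most of the peaks were low. Summit pileups in reads, and their local background, were worked out from the authors' fold enrichment and p-value. The median pileup of the intronic peaks of long genes was 18 reads in the list labelled WT and 20 in that labelled *Bmi1* KO, with a median fold enrichment of 2.46 and 2.32 and a median −log10 p of 4.03 and 3.99. A q-value of 0.05 or lower was reached by 48.3% (47 to 49.6%) and 57% (55.9 to 58.1%) of them. In shorter genes these shares were 48.6% and 58.5%, and around TSSs 58.6% and 71%. A −log10 q of 5 or more was reached by 20 intronic peaks of long genes labelled WT (0.334%, 0.204 to 0.515%) and 42 labelled *Bmi1* KO (0.529%, 0.381 to 0.714%). In introns of shorter genes these shares were 0.492% and 0.726%, with intervals that overlapped those of long genes, and over all autosomal peaks 1.59% and 4.19%.

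More peaks in long introns were listed under the label *Bmi1* KO. The ratio of 7945 to 5992 was 1.33 (1.28 to 1.37), beside 1.29 (1.28 to 1.31) for all autosomal peaks, 1.25 (1.22 to 1.27) for introns of shorter genes, 1.26 (1.24 to 1.28) around TSSs and 1.36 (1.34 to 1.38) between genes. The commonest background at a summit, a measure of depth, was 6.32 reads in the list labelled WT and 8.04 in that labelled *Bmi1* KO, a ratio of 1.27. The part of this depth difference in the ratios was not tested. When only as many of the strongest peaks were taken from the list labelled *Bmi1* KO as the other list held, 5821 intronic peaks of long genes were left in it against 5992, a ratio of 0.971 (0.937 to 1.01). This choice sets the ratio over all autosomal peaks to 1, and gave 0.931 (0.91 to 0.951) in introns of shorter genes and 1.04 (1.03 to 1.06) around TSSs. The ratio also fell as GC rose. It was 2.05 (1.38 to 3.09) in bins under 36% GC, 1.49 (1.36 to 1.63) at 40 to 42%, and 1.13 (1.03 to 1.23) at 48% and above. Introns of shorter genes had the same order in these classes, from 2.05 (1.2 to 3.58) through 1.38 (1.28 to 1.48) to 1.13 (1.09 to 1.17), so it was not particular to long genes. In shorter genes the ratio did not fall in every step, with 1.45 at 36 to 38%, 1.5 at 38 to 40% and 1.41 at 42 to 44%.

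Few positions were shared. Of the 5992 intronic peaks of long genes in the list labelled WT, 760, or 12.7% (11.9 to 13.6%), overlapped a peak labelled *Bmi1* KO by at least 1 bp, against 24.7% of all autosomal peaks labelled WT. Of the 7945 in the list labelled *Bmi1* KO, 756, or 9.52% (8.88 to 10.2%), overlapped a peak labelled WT, against 18.4% of all autosomal peaks labelled *Bmi1* KO. Introns of shorter genes had shares of 14.9% (14.3 to 15.4%) and 11.7% (11.2 to 12.1%), and peaks within 3 kb of a TSS 43.3% and 32.4%. Both shares in long introns thus lay under those in shorter introns, where the other list was also denser. A peak of the median width of its list, placed with its centre at every eligible base, would touch the other list at 1.58% and 1.18% of positions in long introns and at 2.66% and 2.13% in shorter ones. The overlap was 8.05 and 8.03 times this share in long introns and 5.59 and 5.49 times in shorter ones, so the order of the classes turned when set against it. Intergenic peaks had higher overlaps than long introns, 15.8% and 11.6%, over lower shares of positions, 1.54% and 1.12%. A high overlap over this base was thus not particular to long introns. The shared peaks fell in 317 genes.

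Stronger peaks were shared more often. From the weakest to the strongest decile by −log10 p, the share with an overlap went from 10.2% (7.87 to 12.9%) to 19.9% (16.7 to 23.3%) in the list labelled WT and from 6.16% (4.59 to 8.07%) to 15.5% (13 to 18.2%) in that labelled *Bmi1* KO. The deciles between lay at 9.5 to 14.4% and at 5.66 to 11.7%. Where the −log10 q reached 5, 16 of 20 peaks labelled WT overlapped (80%, 56.3 to 94.3%) and 21 of 42 labelled *Bmi1* KO (50%, 34.2 to 65.8%). Where it reached 10, all 11 intronic peaks of long genes in each list overlapped. Introns of shorter genes had the same rise, from 12.7 to 22.4% and from 8.51 to 19.6% over the deciles, with 70.7% and 58.3% at a −log10 q of 5 or more, and 28 of 28 and 29 of 30 peaks at 10 or more. The rise was thus not particular to long genes. Shared peaks in the list labelled WT had the same median pileup as the others, 18 reads, and were wider, at 268.0 bp against 248.0 bp. In the list labelled *Bmi1* KO the medians were 21 reads and 295.5 bp against 20 reads and 259.0 bp. By GC content of the gene, the share with an overlap in the list labelled *Bmi1* KO was 7.25% (5.53 to 9.32%) in the lowest GC quartile of genes and 10.9% (9.97 to 11.9%) in the highest. In the list labelled WT those shares were 12.3% (9.38 to 15.7%) and 13.6% (12.4 to 14.9%), which overlap within counting error.

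Every one of the 541 genes had at least 1 peak in its eligible introns in one list or the other. Peaks of both lists were found in 520 genes, of the list labelled WT alone in 6 and of the list labelled *Bmi1* KO alone in 15. The number per gene reached 244 and 276. The median density per gene was 1.75 per 100 kb in the list labelled WT, with quartiles of 0.682 and 3.45 and a highest value of 10.2. It was 2.33 in the list labelled *Bmi1* KO, with quartiles of 1.11 and 4.75 and a highest value of 12.1. More peaks were listed under *Bmi1* KO in 407 genes, more under WT in 98, and equal numbers in 36. A total of 56 and 80 peaks lay in more than 1 long gene and were counted in each.

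Genes kept their order between the lists, and that order followed GC content. Over the 541 genes, which share both libraries, densities in the lists correlated with a Spearman rho of 0.879 (Pearson r 0.88). Density and GC content of the eligible introns correlated with a rho of 0.908 in the list labelled WT and 0.892 in that labelled *Bmi1* KO (r 0.889 and 0.858). Gene length and density had a rho of −0.23 and −0.244. These are descriptions across genes, which are not independent replicates. The 136 genes of the lowest GC quartile, at 34.4 to 38.6%, held 448 and 772 peaks, or 0.506 (0.46 to 0.555) and 0.872 (0.811 to 0.935) per 100 kb. The 135 genes of the highest quartile, at 43.3 to 54.1%, held 3243 and 4026, or 5.35 (5.17 to 5.54) and 6.64 (6.44 to 6.85).

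Density fell with gene length and was highest near the 3′ end. The 202 genes of 300 to 400 kb had 2.71 (2.58 to 2.84) peaks per 100 kb in the list labelled WT and 3.69 (3.54 to 3.85) in that labelled *Bmi1* KO. The 55 genes over 1000 kb had 1.48 (1.39 to 1.57) and 2 (1.9 to 2.11). Median GC content fell between these groups as well, from 41.3 to 39.1%. Along the gene in the direction of transcription, the decile at the 5′ end had 2.19 (2.01 to 2.37) and 2.82 (2.62 to 3.03) peaks per 100 kb. The lowest values among the deciles, in the middle of the gene, were 1.93 (1.78 to 2.1) and 2.59 (2.4 to 2.78). The decile at the 3′ end had 2.68 (2.48 to 2.89) and 3.78 (3.54 to 4.02). The last decile was the highest of the 10 in both lists, with intervals that did not meet those of the first. GC content was 40.7% in the first decile and 41.4% in the last, and 40.5 to 41% between.

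The genes with the most peaks included models that span many other genes. *Gm20388* on chromosome 8 (chr8:119910841-124345722, plus strand), a model of 4435 kb with 71 other protein-coding genes wholly inside it, held 244 peaks labelled WT and 276 labelled *Bmi1* KO, or 8.19 (7.19 to 9.28) and 9.26 (8.2 to 10.4) per 100 kb. *Fgfr2*, which encodes a fibroblast growth factor receptor, was annotated over 2961 kb with 29 other genes inside it and held 105 and 136 peaks. *Gm37240* spanned 6 other genes and held 39 and 60. In all, 8 models spanned at least 5 other protein-coding genes, and they held 404 peaks labelled WT (6.74%, 6.12 to 7.41%) and 497 labelled *Bmi1* KO (6.26%, 5.73 to 6.81%). A further count, over all long genes, found 204 (3.4%) and 257 (3.23%) of the peaks inside a shorter protein-coding gene.

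Of the other genes among the 10 with the most peaks, *Camta1*, a calmodulin-binding transcription activator, held 59 peaks labelled WT and 72 labelled *Bmi1* KO, with 4 other genes inside its span. *Ptprn2*, a receptor-type phosphatase-like protein of secretory vesicles, held 60 and 57. *Cdh13*, a cadherin anchored to the membrane by a lipid, held 51 and 58. The counts of these genes differed between the lists by less than counting error. *Asic2*, an acid-sensing ion channel, held 46 and 55. *Sdk1*, an immunoglobulin-domain adhesion molecule of synapses, held 39 and 62. *Dlgap2*, a scaffold of the postsynaptic density, held 41 and 54, and *Nav2*, a neuron navigator protein, 44 and 47. Among the 10 genes the highest ratios of *Bmi1* KO to WT were 1.59 (1.05 to 2.44) for *Sdk1* and 1.54 (1.01 to 2.36) for *Gm37240*, and both intervals included the 1.33 of all long introns. The 10 genes together held 728 (12.1%) and 877 (11%) of the peaks.

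The 10 densest genes, ranked on both lists together, had introns rich in GC. *Kcnq1*, a potassium channel subunit of the stria vascularis and vestibular dark cells, had the highest summed density, with 14 peaks labelled WT and 21 labelled *Bmi1* KO in 173 kb of eligible intron, or 8.1 (4.43 to 13.6) and 12.1 (7.52 to 18.6) per 100 kb. *Sorcs2*, a sorting receptor, had 8.1 and 11.9 per 100 kb, and *Apbb2*, an adaptor that binds the amyloid precursor protein, 8.4 and 11.1. *Agap1*, a GTPase-activating protein, had 9.33 and 10.1. All of these had introns of 45 to 50.7% GC. *Ulk4*, a kinase-like protein, had 8.49 and 10.7 per 100 kb, and *Cdh4*, R-cadherin, had 10.2 and 7.92. *Msi2*, an RNA-binding protein of stem and progenitor cells, had 8.45 and 9.62, and *Gse1* 8.49 and 9.14. *St6galnac3*, a sialyltransferase, had 6.67 and 10.8, and with *Gm20388* completed the 10. *Gse1* lies wholly inside *Gm20388*, so its peaks were counted in both. The intervals of the 10 genes overlapped one another, so their order is not set by these counts, and in the list labelled WT alone *Cdh4* was the densest of all 541.

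The sparsest genes were poor in GC. *Brinp3*, *Epha5*, an ephrin receptor, and *Trdn*, a protein of the muscle calcium release complex, had no peak labelled WT and 1 labelled *Bmi1* KO each. *Agmo*, an enzyme of ether lipid breakdown, and *Xrcc4*, a factor of DNA end joining, had 1 and 0. The GC content of their eligible introns was 34.4% for *Brinp3*, 34.9% for *Epha5*, 35.9% for *Trdn*, 36.4% for *Agmo* and 37.1% for *Xrcc4*.

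By function, adhesion and synapse genes were sparse and transcription factors dense. The 24 synaptic organisers and scaffolds held 321 peaks labelled WT and 466 labelled *Bmi1* KO, or 1.41 (1.26 to 1.58) and 2.05 (1.87 to 2.25) per 100 kb. The 32 immunoglobulin-domain adhesion and axon guidance genes held 257 and 366, or 1.18 (1.04 to 1.33) and 1.68 (1.51 to 1.86). The 13 cadherins, protocadherins and catenins held 166 and 210, or 1.58 (1.35 to 1.84) and 2 (1.74 to 2.29). In each of these lists at most 10 genes lay above the median gene of all 541. The 34 transcription factors and chromatin regulators held 488 and 697, or 3.05 (2.79 to 3.34) and 4.36 (4.04 to 4.7), and 24 and 27 of them lay above that median. Median GC content went the same way, at 39.6, 38.2 and 39.1% in the sparse lists and 42.4% among the transcription factors. Its part in these densities was not tested gene by gene.

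The densities of the other lists were as follows. The 40 neurotransmitter receptors and ion channels had 2.1 (1.91 to 2.32) and 2.63 (2.41 to 2.86) peaks per 100 kb, and the 31 signalling enzymes and regulators 2.7 (2.45 to 2.95) and 3.22 (2.96 to 3.5). The 16 genes known as fragile sites or giant genes had 1.71 (1.52 to 1.92) and 2.02 (1.82 to 2.25), and the 6 RNA-binding proteins 2.91 (2.44 to 3.46) and 3.23 (2.72 to 3.8). The 341 genes in none of the lists had 2.33 (2.26 to 2.41) and 3.14 (3.05 to 3.23). The ratio of *Bmi1* KO to WT ran from 1.11 (0.868 to 1.41) for RNA-binding proteins to 1.45 (1.26 to 1.68) for synaptic organisers, and the intervals of all 9 lists overlapped that of all long genes.

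Examples from the dense and sparse ends of 6 lists give the range within each. Among synaptic organisers, *Tenm4*, a teneurin, had 36 and 54 peaks, or 5.69 and 8.53 per 100 kb, while *Nlgn1*, a postsynaptic neuroligin, had 3 and 5, or 0.348 and 0.58. Among guidance genes, *Slit3*, a secreted guidance cue, had 34 and 42, or 6.33 and 7.82 per 100 kb, while the ephrin receptor *Epha6* had 4 and 2, or 0.432 and 0.216. Among cadherins, *Cdh4* had 44 and 34 peaks and *Pcdh9* 0 and 5. The denser gene of each pair was the richer in GC, at 45.3 against 37.3%, 46.4 against 37.3% and 49.4 against 35.6%. Among the transcription factors, *Maml3*, a Notch coactivator, had 25 and 27 peaks and *Zfpm2*, a cofactor of GATA proteins, 1 and 1. Among fragile-site genes, *Csmd2* had 38 and 39 and *Lrp1b*, a lipoprotein receptor of 2058 kb, 8 and 9. Among signalling genes, *Tiam1*, an activator of Rac, had 18 and 31 and *Fgf14*, a regulator of sodium channels, 2 and 4.

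The list of hearing genes had 8 members over 300 kb, with 95 peaks labelled WT and 117 labelled *Bmi1* KO, or 2.32 (1.88 to 2.84) and 2.86 (2.36 to 3.42) per 100 kb. These values lie on those of all long introns, at 2.15 and 2.86. *Cdh23*, the cadherin of the upper part of the tip link, had 20 and 21 peaks, or 6.38 (3.9 to 9.85) and 6.7 (4.14 to 10.2) per 100 kb, with 2 other genes inside its span. *Pcdh15*, which forms the lower part of the tip link, had 10 and 13 in 1443 kb, or 0.693 (0.332 to 1.27) and 0.901 (0.48 to 1.54). The partners of the tip link thus differed in density in both lists, with a GC content of 50.4% for *Cdh23* and 38.4% for *Pcdh15*. *Adgrv1*, a large adhesion receptor of hair bundles, had 10 and 11, or 2.2 and 2.42 per 100 kb. *Cacna1d*, the calcium channel of the inner hair cell synapse, had 17 and 25, or 4.64 (2.7 to 7.43) and 6.83 (4.42 to 10.1). *Kcnq1* is given above. *Diaph3*, a formin that nucleates actin, had 7 and 7 peaks, and *Myo3a*, a motor protein of stereocilia tips, 2 and 3. None of the 8 hearing genes had a ratio of *Bmi1* KO to WT with an interval that left out 1.

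Genes with a large difference were no commoner than among shorter genes. Of 397 long genes with at least 10 peaks over both lists, 79, or 19.9% (16.1 to 24.2%), had at least 2-fold more peaks labelled *Bmi1* KO, beside 19.8% of 1035 shorter genes. At least 2-fold more peaks labelled WT were found in 5, or 1.26% (0.41 to 2.91%), beside 3.57% of the shorter genes. The first share is at the background and says nothing particular of long genes. This share was 18 of 48 genes (37.5%, 24 to 52.6%) in the lowest GC quartile and 7 of 135 (5.19%, 2.11 to 10.4%) in the highest. The 48 were those of 136 genes that reached 10 peaks, whereas all 135 of the highest quartile did. Genes with few peaks labelled WT can reach 10 through those labelled *Bmi1* KO, as *Mdga2* did with 1 and 10. Small counts also cross 2-fold more easily, so no change with GC is read from these shares. Of the lists, guidance genes had 6 of 16 with a 2-fold higher number labelled *Bmi1* KO (37.5%, 15.2 to 64.6%). They were *Erbb4*, *Unc5c*, *Negr1*, *Cntn5*, *Sema5a* and *Robo1*. *Erbb4*, which was placed in this list, is a receptor tyrosine kinase without immunoglobulin domains. Transcription factors had 6 of 31, namely *Mecom*, *Tox*, *Sox5*, *Klf12*, *Zbtb20* and *Tcf4*, and hearing genes 0 of 7. Cadherins had 3 of 9, synaptic organisers 4 of 19, receptors and channels 4 of 26, fragile-site genes 2 of 14, RNA-binding proteins 0 of 5 and signalling genes 3 of 26. The interval of the guidance genes included the 19.9% of all long genes. The genes in these counts are named after their values were seen.

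Among genes with at least 10 peaks over both lists, the highest ratios were found where very few peaks were labelled WT. *Mdga2*, an adhesion molecule that binds neuroligins, had 1 and 10 peaks, a ratio of 10 (1.42 to 434). *Sgcz*, a sarcoglycan, had 1 and 9, and so did *Plxdc2*, a plexin-domain protein, each with a ratio of 9 (1.25 to 394.5). *Ptprd*, a receptor phosphatase that organises synapses, had 3 and 18, a ratio of 6 (1.75 to 31.8), and *Plcl1*, a phospholipase C-like protein, had 2 and 12, a ratio of 6 (1.34 to 55.2). These genes were chosen for their ratio, so the intervals are only a description. The lowest ratios among the same genes were those of *Ehbp1*, with 9 and 3 peaks, *Gmds*, an enzyme of fucose synthesis, with 12 and 4, *Plce1*, a phospholipase C, with 9 and 3, *Ltbp1*, which binds latent TGF-β, with 15 and 6, and *Hydin*, a protein of motile cilia, with 19 and 9. The intervals of all 5 included 1.

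Of the motifs searched, the E-box and the CTCF core were about as common at the summits as in shorter genes, and the GC box was less so. Each was searched on both strands in the 201 bp around the summit and in windows of the same length 1 kb to either side. The E-box CAGCTG was found at 12.6% (11.8 to 13.5%) of the intronic peaks of long genes labelled WT and 13.2% (12.5 to 14%) of those labelled *Bmi1* KO, against 9.2% and 9.75% of the flanking windows and 13.5% and 13.5% of peaks in shorter genes. The CTCF core CNAGNNGGC was found at 8.98% (8.27 to 9.73%) and 9.62% (8.98 to 10.3%), against 7.13% and 6.82% of flanks and 9.96% and 9.8% in shorter genes. The GC box GGGCGG was found at 3.1% (2.68 to 3.58%) and 3.22% (2.84 to 3.63%), against 2.37% and 2.15% of flanks. It was commoner in shorter genes, at 4.16% (3.86 to 4.48%) and 4.49% (4.21 to 4.78%), and was found at 25.3% and 25.4% of peaks around TSSs. The flanks in shorter genes held it more often too, at 3.06% and 2.88%. The ratio of summits to flanks was 1.31 and 1.5 in long genes and 1.36 and 1.56 in shorter ones. The homeobox core TAATTA was rarer at summits than beside them, at 2.07% (1.72 to 2.46%) and 2.16% (1.86 to 2.51%) against 5.37% and 5.95%. Motifs of G and C were thus higher and the motif of A and T lower at summits, where GC content was higher too.

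For the other motifs the intervals at summits and at flanks overlapped. The AP-1 site TGANTCA was found at 5.24% and 5.87% of the peaks against 6.01% and 6.06% of flanks, the SOX site ACAATGG at 3.15% and 2.42% against 3.12% and 2.75%, and the TEAD site ACATTCC at 2.7% and 2.59% against 2.92% and 2.87%. The GATA site AGATAAG was found at 2.35% and 2.24% against 2.65% and 2.78%. The RFX site GTTGCCA was found at 1.92% (1.59 to 2.3%) against 2.03% of flanks in the list labelled WT, and at 2.29% (1.97 to 2.64%) against 1.77% (1.57 to 1.99%) in the list labelled *Bmi1* KO. The ratio of summits to flanks for RFX was thus 0.947 in the list labelled WT and 1.3 in that labelled *Bmi1* KO, where the intervals barely met. A match to such short letters is a description and no site.

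The strongest peaks were more often in repeated sequence. For each summit, the 32 bases around the summit were looked up in all sequences of the GRCm38 build, on both strands. They occurred more than 1 time for 5.36% (4.8 to 5.96%) of the intronic peaks of long genes labelled WT and 6.7% (6.16 to 7.27%) of those labelled *Bmi1* KO. Where the −log10 q reached 5 the shares were 7 of 20 (35%, 15.4 to 59.2%) and 10 of 42 (23.8%, 12.1 to 39.5%), and among those that also overlapped the other list 7 of 16 and 8 of 21. Introns of shorter genes had like shares, 5.92% and 6.09% of all peaks and 36.6% and 30.5% where the −log10 q reached 5. Without the repeated summits the overlap of the long introns was 12.5% (11.7 to 13.4%) and 9.54% (8.88 to 10.2%).

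The 6 shared peaks that ranked highest in both lists are described in turn, with positions in GRCm38. The first lay in *Cmss1* (chr16:57391244-57391756 in the list labelled WT), with 200 reads over a background of 11 in the list labelled WT and 197 over 13.1 in that labelled *Bmi1* KO. The second lay near the 3′ end of *Atrnl1*, an attractin-like gene (chr19:58113168-58113696), with 141 reads over 8.58 and 160 over 10.6. The next lay in *Mdga2* (chr12:67059081-67059973), with 132 over 9.44 and 140 over 10.6. These peaks stood far above the median of 18 and 20 reads in both lists. *Dlgap2* followed (chr8:14306675-14307441), with 71 over 7.48 and 69 over 9.62, then *Camk1d*, a calcium-dependent kinase (chr2:5379139-5379463), with 63 over 7.16 and 68 over 9.06. The last lay in *2210408I21Rik* (chr13:77438854-77439140), with 54 over 6.32 and 57 over 8.04. The summits of the lists lay within 46 bp of each other in all 6. Fold enrichment was 7.51 to 16.7 in the list labelled WT and 6.41 to 14 in that labelled *Bmi1* KO, and lower in the latter for each of the 6.

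The 121 bases around the summit in the list labelled WT are printed for these 6 peaks, read from the plus strand of GRCm38 (mm10), to show the repeats and motifs that they hold. In *Atrnl1* and *Dlgap2* the capitals mark the first unit of a tandem repeat: in *Atrnl1* 96% of bases were the same 21 bp further on, and in *Dlgap2* 94.4% were the same 31 bp further on. In *Mdga2* and *2210408I21Rik* the capitals mark the stretch in which the windows align to each other on opposite strands, with 85.9% of 78 bases identical. In *Cmss1* the capitals mark the letters of the GC box GGGCGG, held by 3.1% of all intronic peaks of long genes labelled WT. In *Camk1d* they mark those of the homeobox core TAATTA, held by 2.07%. Both are matches of short letters inside windows with repeated runs, and no site is read from them. The windows span chr16:57391497-57391617 in *Cmss1*, chr19:58113444-58113564 in *Atrnl1*, chr12:67059322-67059442 in *Mdga2*, chr8:14306819-14306939 in *Dlgap2*, chr2:5379263-5379383 in *Camk1d* and chr13:77438921-77439041 in *2210408I21Rik*.
*Cmss1*: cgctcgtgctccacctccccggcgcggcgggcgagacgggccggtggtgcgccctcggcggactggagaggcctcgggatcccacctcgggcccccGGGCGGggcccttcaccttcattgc
*Atrnl1*: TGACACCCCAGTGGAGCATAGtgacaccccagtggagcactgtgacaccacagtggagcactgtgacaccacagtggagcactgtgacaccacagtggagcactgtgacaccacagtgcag
*Mdga2*: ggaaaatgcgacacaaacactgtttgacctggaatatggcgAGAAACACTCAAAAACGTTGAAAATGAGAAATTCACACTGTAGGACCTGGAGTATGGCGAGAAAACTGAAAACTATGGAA
*Dlgap2*: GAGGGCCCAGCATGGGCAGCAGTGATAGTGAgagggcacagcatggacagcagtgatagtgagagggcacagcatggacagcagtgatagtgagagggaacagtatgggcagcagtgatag
*Camk1d*: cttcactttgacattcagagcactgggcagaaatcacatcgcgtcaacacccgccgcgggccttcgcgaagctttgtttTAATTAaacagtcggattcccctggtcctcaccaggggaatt
*2210408I21Rik*: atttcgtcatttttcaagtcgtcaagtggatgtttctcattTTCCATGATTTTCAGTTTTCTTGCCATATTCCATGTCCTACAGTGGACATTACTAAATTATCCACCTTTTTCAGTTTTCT
Of the 90 runs of 32 bases in each window, 67 occurred more than 1 time in the build for *Cmss1*, 63 for *Atrnl1*, 19 for *Mdga2*, 81 for *Dlgap2*, 41 for *Camk1d* and 61 for *2210408I21Rik*. The commonest run of *2210408I21Rik* occurred 252 times and that of *Atrnl1* 36 times. All copies of the *Dlgap2* runs lay within the peak labelled WT, the wider of the pair. Runs of the other windows were also found on other chromosomes or contigs. In all they lay on 6 sequences of the build for *Cmss1*, 12 for *Atrnl1*, 7 for *Mdga2*, 10 for *Camk1d* and 14 for *2210408I21Rik*. The *Cmss1* window had a GC content of 77.7% with 16 CG dinucleotides, and the *2210408I21Rik* window 33.9% with 2. Each of the 6 windows thus held sequence found more than 1 time. The exact 32 bases at the summit occurred 1 time for *Mdga2* in both lists and for *Camk1d* in the list labelled WT. A count of exact runs misses copies that differ in a base, so it does not show these summits to be single-copy. The part of these copies in the height of the peaks was not tested.

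The strongest peaks without an overlap were weaker than the 6 shared ones. In the list labelled WT the first lay in *Cdh13* (chr8:118894730-118895256), with 29 reads over 6.68. It was followed by peaks in *Dst*, a cytoskeletal linker (chr1:33945004-33945259), with 28 over 6.32, and *Wwox*, an oxidoreductase at a fragile site (chr8:114555986-114556346), with 27 over 6.32. *Trappc9*, a subunit of a vesicle tethering complex (chr15:72796047-72796298), had 29 over 7.52, and *Tenm2*, a teneurin (chr11:36098533-36098814), 26 over 6.32. Their fold enrichment was 3.52 to 3.96, against 7.51 to 16.7 for the 6 shared peaks in the same list. In the list labelled *Bmi1* KO the first lay in *Pdzd2*, a protein with PDZ domains (chr15:12523627-12523984), with 35 reads over 8.04. *Nfib*, a nuclear factor I transcription factor (chr4:82512813-82513585), had 37 over 9.02, and *Adgrv1* (chr13:81473855-81474077) 34 over 8.04. *Atrnl1* had another peak (chr19:58120933-58121469), with 33 over 8.04, and *Nr3c2*, the mineralocorticoid receptor (chr8:77065809-77066139), 33 over 8.04. The 32 bases at the summit occurred 1 time in the genome for all 10 of these peaks but that in *Adgrv1*, where they occurred 2 times. This is near the background, since they occurred more than 1 time for only 5.18% of all intronic peaks of long genes without an overlap labelled WT and 6.72% of those labelled *Bmi1* KO.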

How the data were processed

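Peak lists from ATAC-seq of 1 WT and 1 *Bmi1*-/- library were used. The labels name FastQC, BWA, MACS2, HOMER and the build mm10 (GRCm38), and their versions for the ATAC-seq step are not given in the sources used here. Per the labels and the lists, the authors called peaks per library. The deposited fold enrichment is a ratio of pileup to local background. The deposited −log10 p and −log10 q belong to that pileup, and the deposited score (−log10 p, scaled) was not used. Pileups were solved with a pseudocount of 1 and taken as whole within 0.001 of the −log10 p.

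Peaks on chromosome X and on contigs were left out. Eligible bases exclude N, exons and 3 kb around each TSS. Intervals are exact binomial, Poisson or conditional. The lists hold no read totals, so depth is known only from the background. Python 3.11.15, numpy 2.4.6, pandas 2.3.3, scipy 1.17.1 and samtools 1.23.1 were used, and the calculations were checked on simulated data. Members and lists were chosen with earlier results of these data known. Named are the 10 genes with the most peaks, the 10 densest, the 5 sparsest, the 5 highest and 5 lowest ratios (at least 10 peaks), hearing genes, examples of other lists, the 6 strongest shared peaks and the 5 strongest unshared in each list. Some genes that this rule selects are not reported here.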

Additional observations from a re-analysis of the deposited data

How the results depend on the processing

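Of the alternatives, 10 kb in place of 3 kb from a TSS, the summit in place of the centre, and exons and TSSs of protein-coding genes only kept all 5 results (the ratio of peak numbers, and the density ratio and overlap in each list) within their counting intervals. So did leaving out peaks inside shorter genes, chosen after seeing the data. With a −log10 q of at least 1.3, the ratio of *Bmi1* KO to WT peaks was 1.57 and the overlaps were 9.81% of peaks labelled WT and 6.26% of those labelled *Bmi1* KO. Where both lists were held to a −log10 q of 5 or more, 20 and 42 peaks were left, beside 1229 and 4176 over all autosomal peaks. The ratio in long introns was then 2.1 (1.21 to 3.78), an interval that included the main value of 1.33. The densities were 0.384 and 0.438 times those of shorter introns, and the overlaps 60% and 28.6%. With equal numbers of peaks, which sets the ratio over all autosomal peaks to 1, the ratio was 0.971 (0.937 to 1.01), and the overlaps were 10.3% and 10.6%. For genes over 500 kb, the densities were 0.499 and 0.534 times those of shorter introns, and the overlaps 11.7% and 8.67%. A reciprocal overlap of 50% was met by 7.21% and 5.45%. Also chosen after seeing the data, leaving out models that span at least 5 other genes gave density ratios of 0.544 and 0.581, and weighting shorter introns by GC gave 0.934 and 0.944. The cause of these changes was not tested, beyond the fewer peaks that stricter thresholds leave. Without *Gm20388* the median density per gene was 1.75 and 2.33 as before. In windows of 50 bp to each side, all 18 motif shares were lower, as fewer bases were searched. Genes with few peaks have wide intervals at this depth.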

Other observations

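By the same rule, chromosome X held few peaks. Its 26 protein-coding genes longer than 300 kb had 14.9 Mb of eligible intron, with 9 peaks labelled WT and 8 labelled *Bmi1* KO, or 0.0603 and 0.0536 per 100 kb, against 2.15 and 2.86 on chromosomes 1 to 19. Over the whole chromosome 487 and 724 peaks were listed in 163.5 Mb of sequenced bases.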
